A study of Mus musculus with 4 samples.

Results

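The genes described here are 10 that mark the mesenchymal state of glioma, out of 20457 genes with counts over tissue: Cebpb, Stat3, Fosl1, Runx1, Hmga2, Twist1, Timp1, Chil1, Emp1 and Pdpn. They were chosen by name and not by a measured value, but with earlier results of these data known. Of these, 9 were found by the symbol itself, and Chi3l1 is listed as Chil1, its symbol in the RefSeq gene table. Spatial transcriptomes came from formalin-fixed sections of mouse brain, all at day 11, from animals inoculated with a brain tumour that was then resected. TREAT sections came from animals given a hydrogel and Vehicle sections from animals without it, with 2 capture areas each, TREAT 1+4, TREAT 2+3, Vehicle 1+4 and Vehicle 2+3. A capture area is an array of barcoded spots, and each held 2 pieces of tissue. The sources state 4 animals in all for these 8 pieces and do not tie pieces to animals. The p-values of TREAT against Vehicle therefore measure the spread between areas. Those of comparisons between zones, with area as a block, measure how zone differences vary over the 4 areas. The tumour line, the strain and the age of the mice are not given in the sources used here.

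Gliomas move between cell states, and the mesenchymal state is the one most often linked to injury, inflammation and regrowth after therapy. C/EBP-beta (Cebpb) and STAT3 are known as its master transcription factors, and the AP-1 member FRA-1 (Fosl1) and RUNX1 act with them. Some of its genes, such as podoplanin (Pdpn) and the chitinase-like protein YKL-40 (Chil1 in mouse), are also made by reactive astrocytes around a lesion, so where a gene lies in the section matters as much as its level.

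Spots were divided without using any of the 10 genes. A spot counted as tumour where 20 proliferation genes, summed over the spot and its neighbours, exceeded 412 CPM (counts scaled to a common library total) and the patch held at least 20 spots. Tumour interior was tumour more than 2 grid steps from the nearest spot outside it, the margin lay within 2 steps of the edge on either side, and the rest was called brain. Interior spots numbered 252 and 631 in the TREAT areas, against 949 and 1488 in the Vehicle areas. They were 14.2% ± 9.49 of tissue spots in TREAT and 36.4% ± 8.94 in Vehicle (SD, n = 2 each). A two-sided exact test over the 2 areas against 2 gave p = 0.333 by permutation, as low as this design can go. Median depth in the interior was 32598 and 35483 unique molecular identifiers (UMIs) per spot in TREAT, and 21183 and 20961 in Vehicle. In brain it was 14242 and 10385 in TREAT, against 5382 and 4759 in Vehicle. Neuron markers, 8 genes, summed to 49.7 to 107 CPM in the interior and to 7151 to 9479 CPM in brain, and no gene of that list was at 0. A spot is a small region that can hold several cells, so fewer cells of a type and less RNA per cell cannot be told apart.

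**Figure D1:**
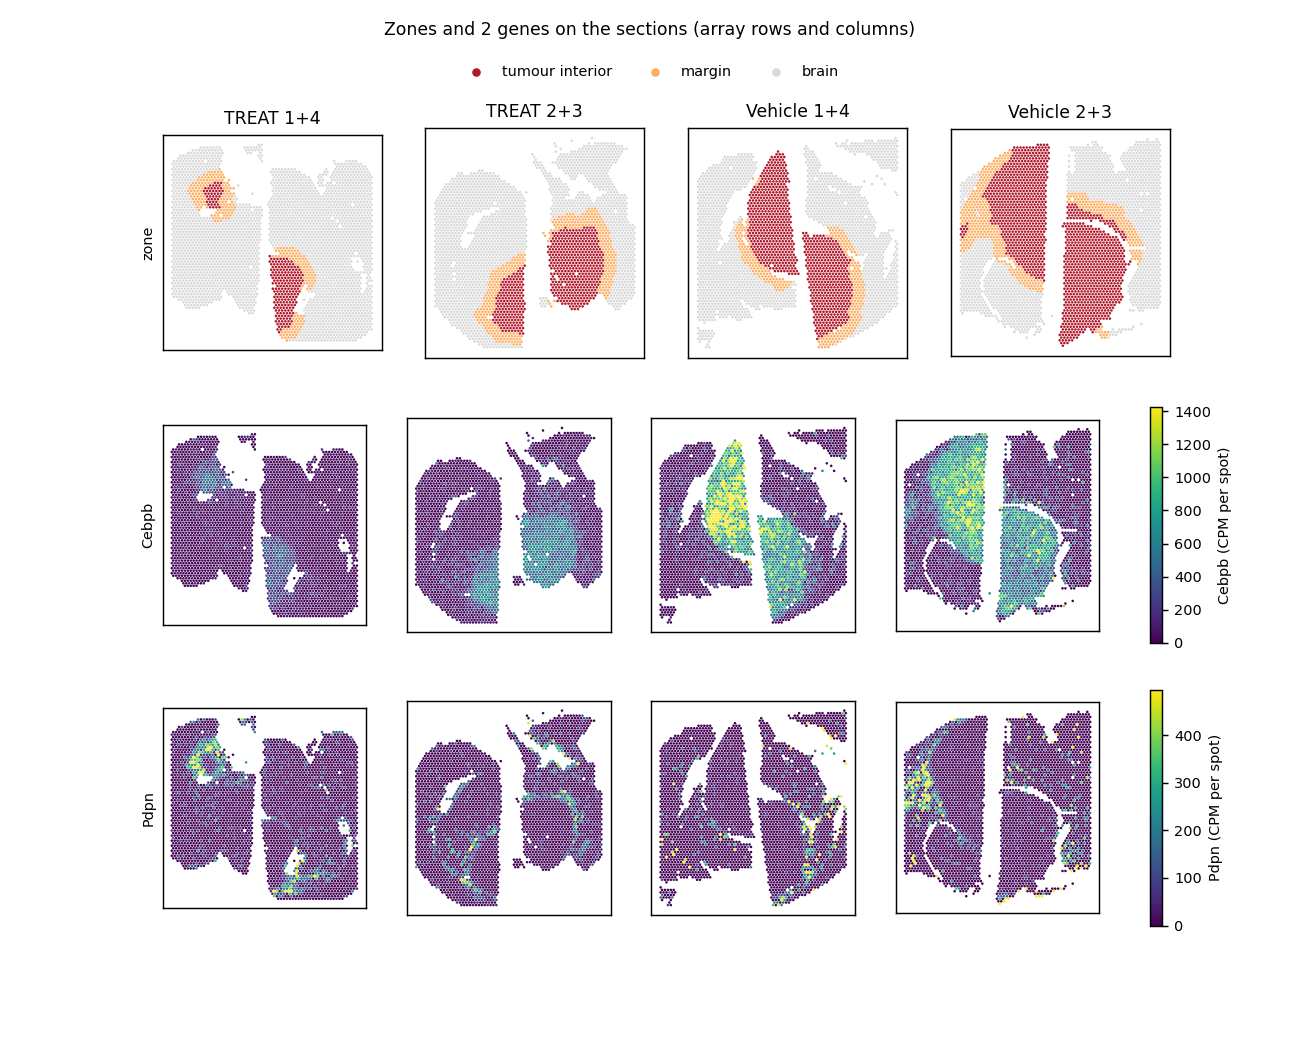
Each dot is a spot at its array row and column, with the 4 areas in columns. The top row shows the zones, the middle row Cebpb and the bottom row Pdpn in CPM per spot, with colour cut at the 99th percentile over all spots. Cebpb fills the tumour interior, while Pdpn is highest in a band along the tumour edge.

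All 10 genes differed between the tumour interior and brain, as did 71.8% of all genes tested. The 6 transcription regulators, Timp1 and Emp1 were higher in the interior, and Chil1 and Pdpn were lower there. At an adjusted p under 0.05 (edgeR), 34.8% of all 18160 genes tested were higher in the interior and 37.0% lower, so 8 of 10 higher exceeds the background share in that direction and 2 of 10 lower does not. The median log2 change of the 10 was 3.73, against 0.02 over all genes. Levels are CPM scaled by TMM, a factor per library that discounts genes with extreme changes. Capture is by gene-specific probes, so levels are compared between samples and not between genes.

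**Figure D2:**
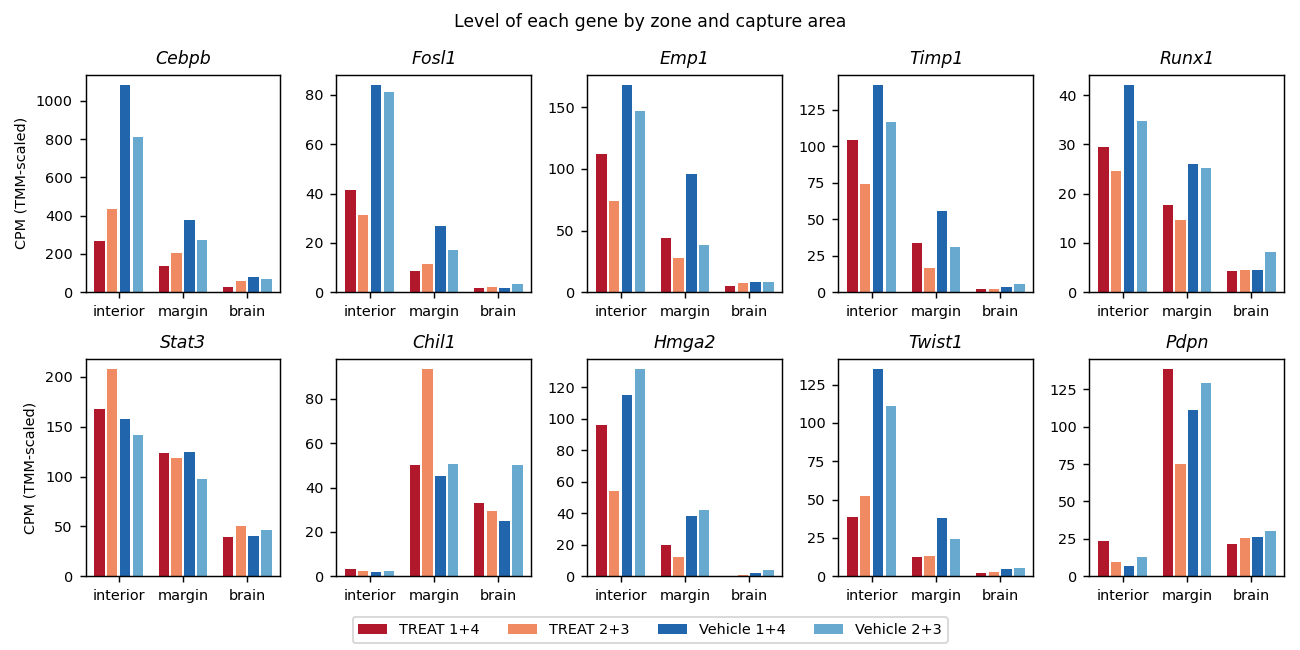
Bars give the level of each gene in TMM-scaled CPM for the tumour interior, margin and brain, 1 bar per capture area, TREAT in red and Vehicle in blue. In 8 panels each area's interior bar is its tallest, and in the Chil1 and Pdpn panels its margin bar is.

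Cebpb, the C/EBP-beta transcription factor (ENSMUSG00000056501, chromosome 2, 167688915 to 167690432), had 270.1 and 432.7 CPM in the interior of TREAT areas and 1083 and 809.8 CPM in that of Vehicle areas. In brain it had 27.4 and 56.3 CPM in TREAT, and 78.0 and 71.6 CPM in Vehicle. Every interior value exceeded every brain value, and the log2 change of interior over brain was 3.39 ± 0.15 (SE, adjusted p = 1.36e-09). Stat3, the transcription factor downstream of the interleukin-6 family (ENSMUSG00000004040, chromosome 11, 100886806 to 100939594), had 167.4 and 208.0 CPM in the TREAT interior and 157.8 and 141.3 CPM in the Vehicle interior, against 39.4 and 50.01 CPM in TREAT brain and 40.6 and 46.3 CPM in Vehicle brain. Its change of 1.93 ± 0.12 was the smallest of the 8 that were higher, and brain held a clear level of its own.

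Fosl1, the AP-1 subunit FRA-1 (ENSMUSG00000024912, chromosome 19, 5447698 to 5455938), had 41.3 and 31.4 CPM in the TREAT interior and 84.1 and 81.1 CPM in the Vehicle interior, while all 4 brain values lay between 1.84 and 3.42 CPM. Runx1, a partner of core binding factor beta (ENSMUSG00000022952, chromosome 16, 92601466 to 92826074), had 29.4 and 24.7 CPM in the TREAT interior and 42.1 and 34.7 CPM in the Vehicle interior, with brain between 4.29 and 8.15 CPM. Their log2 changes of interior over brain were 4.50 ± 0.24 for Fosl1 and 2.61 ± 0.16 for Runx1. Hmga2, a chromatin protein of embryonic and tumour cells (ENSMUSG00000056758, chromosome 10, 120361268 to 120476469), had 96.0 and 54.4 CPM in the TREAT interior and 115.1 and 131.7 CPM in the Vehicle interior. Brain held 0.286 and 0.525 CPM of Hmga2 in TREAT, from 12 and 12 UMIs, and 1.99 and 4.07 CPM in Vehicle, from 20 and 31 UMIs. Its change of 6.39 ± 0.38 was the largest of the 10 and rests on those few brain counts. Twist1, a regulator of mesenchymal transition (ENSMUSG00000035799, chromosome 12, 33957671 to 33959831), had 39.0 and 52.6 CPM in the TREAT interior and 135.2 and 111.0 CPM in the Vehicle interior, with brain between 2.12 and 5.26 CPM, a change of 4.44 ± 0.14.

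Timp1, a secreted inhibitor of matrix metalloproteases (ENSMUSG00000001131, chromosome X, 20870166 to 20874737), had 104.2 and 73.8 CPM in the TREAT interior and 141.8 and 116.3 CPM in the Vehicle interior. Brain values lay between 2.1 and 5.78 CPM, and the log2 change was 5.11 ± 0.23 (adjusted p = 1.40e-09). Emp1, a membrane protein of the PMP22 family (ENSMUSG00000030208, chromosome 6, 135362550 to 135383173), had 111.8 and 74.1 CPM in the TREAT interior and 168.1 and 146.7 CPM in the Vehicle interior, with brain between 4.72 and 8.37 CPM, a change of 4.07 ± 0.25. For both genes the 4 interior values and the 4 brain values did not overlap.

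Chil1 and Pdpn had the opposite pattern. Chil1, a secreted lectin related to chitinases (ENSMUSG00000064246, chromosome 1, 134182156 to 134190031), had 3.29 and 2.54 CPM in the TREAT interior and 1.97 and 2.16 CPM in the Vehicle interior, against 33.1 and 29.4 CPM in TREAT brain and 25.1 and 50.3 CPM in Vehicle brain. Its log2 change of interior over brain was -3.83 ± 0.26 (SE, adjusted p = 5.17e-08). Pdpn, the mucin-type membrane protein podoplanin (ENSMUSG00000028583, chromosome 4, 143267409 to 143299564), had 23.3 and 9.36 CPM in the TREAT interior and 6.84 and 12.7 CPM in the Vehicle interior, against 21.5 and 25.7 CPM in TREAT brain and 26.2 and 30.4 CPM in Vehicle brain. In TREAT 1+4 the interior and brain were close, and the change over all areas was -1.11 ± 0.26 (adjusted p = 0.00207). With 0.5 times the tumour threshold or a margin of 1 step that call was lost, at -0.40 and -0.59.

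The margin was higher than brain for all 10 genes, against a background of 20.6% of genes called higher and 21.8% lower (42.4% in all). With library totals 62.3% of all calls were higher, against 48.6% with TMM. Pdpn had 138.6 and 75.2 CPM in the TREAT margin and 111.0 and 129.0 CPM in the Vehicle margin, a log2 change of 2.08 ± 0.26 over brain (adjusted p = 6.39e-05). Chil1 had 50.2 and 93.5 CPM in the TREAT margin and 45.1 and 50.5 CPM in the Vehicle margin, a change of 0.79 ± 0.23 (adjusted p = 0.0142). The other 8 had margin values between those of interior and brain in every area. Their ranges over the 4 margins were 8.65 to 26.8 CPM for Fosl1, 27.9 to 95.7 CPM for Emp1, 16.6 to 55.3 CPM for Timp1, 12.3 to 41.9 CPM for Hmga2, 14.7 to 26.0 CPM for Runx1 and 97.8 to 125.1 CPM for Stat3. The highest margin value of Chil1 lay in TREAT 2+3, and without that area its change was 0.47 and was not called. It was also not called at 1.5 times the threshold (0.43) or with tumour defined by clusters (0.34). Between the interior and the margin the same division appeared: Chil1 and Pdpn had log2 changes of -4.63 ± 0.27 and -3.19 ± 0.27, and the other 8 were higher in the interior by 0.53 to 1.93, in a comparison where 27.2% of all genes were called higher and 32.9% lower (60.1% in all).

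Step by step across the edge, Pdpn peaked at the first tumour spots in 3 of 4 areas. It reached 230.1 CPM at step 1 inside the edge in TREAT 1+4 and 115.6 CPM at step 2 in TREAT 2+3, and 137.6 and 171.4 CPM at step 1 in the Vehicle areas (CPM without TMM scaling, as in the rest of this paragraph). By step 5 it was between 6.54 and 13.4 CPM in the 4 areas. Chil1 peaked between step 4 outside and step 1 inside, at 100.5 and 128.4 CPM in TREAT and 74.8 and 81.7 CPM in Vehicle, and was at most 2.59 CPM at step 5. Cebpb had 126.7 and 213.4 CPM at step 1 in TREAT and 301.7 and 236.4 CPM in Vehicle, and went on to peaks of 348.4 and 584.3 CPM in TREAT and 1015 and 828.6 CPM in Vehicle, 6 to 12 steps inside. Outside the tumour Cebpb was lower with distance. At 3 to 5 steps out it had 49.0 and 84.3 CPM in TREAT and 114.7 and 86.0 CPM in Vehicle, and beyond 10 steps 21.7 and 42.0 CPM in TREAT and 55.0 and 53.7 CPM in Vehicle. Brain spots lay farther from tumour in TREAT, at a median of 16 and 13 steps, than in Vehicle, at 11 and 10 steps.

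**Figure D3:**
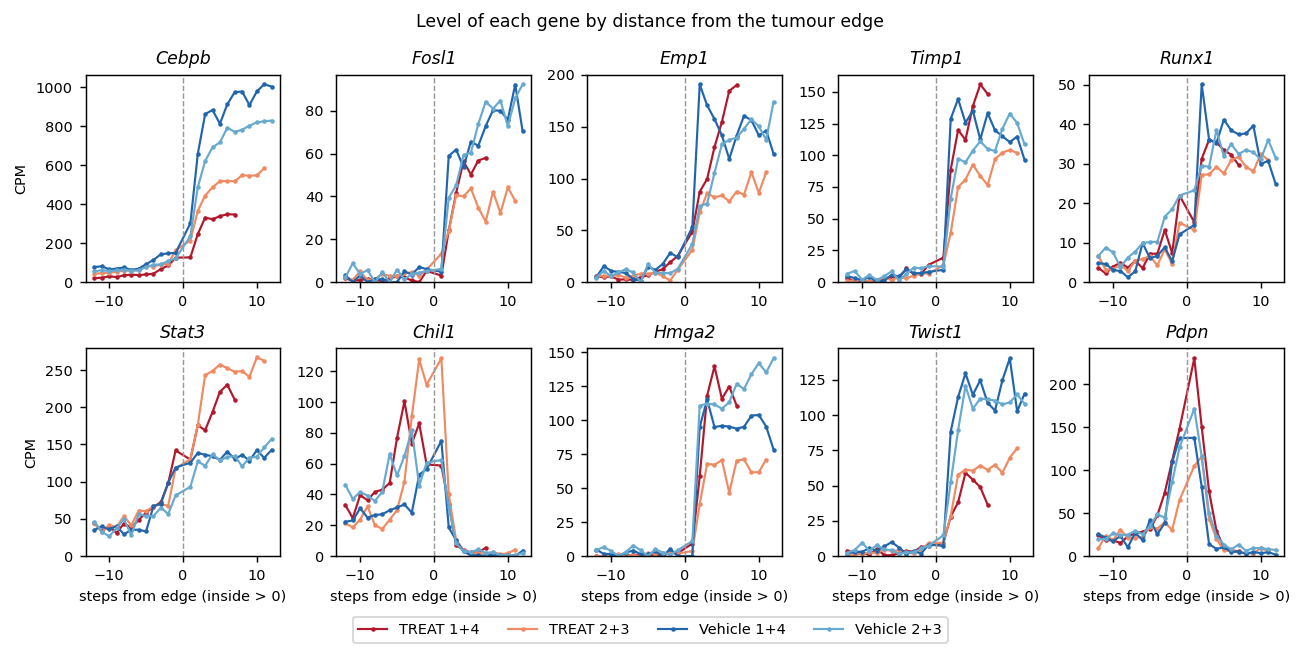
Lines give the level of each gene (CPM without TMM scaling) against the number of grid steps from the tumour edge, positive inside, for steps with at least 20 spots, 1 line per area. Pdpn and Chil1 peak around the edge and are lower by step 5 inside, while the other 8 genes are higher inside than outside.

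Of 9 reactive astrocyte markers 5 were higher in the margin than in brain, among them Gfap (1.33 ± 0.36), and 1 was lower, Aldoc (-0.76 ± 0.12). Of all genes 20.6% were called higher and 21.8% lower there. Aqp4 (0.65 ± 0.33), Slc1a3 (0.31 ± 0.34) and Gja1 (-0.037 ± 0.099) were not called. In the interior 7 of the 9 were lower than in the margin and none was higher, where 32.9% of all genes were called lower. The iron-binding protein gene Lcn2 had another pattern from Pdpn and Chil1, with log2 changes of 3.86 ± 0.33 in the margin and 4.41 ± 0.33 in the interior over brain. Serpina3n, an acute-phase protease inhibitor of reactive astrocytes, was higher in the margin than in brain by 2.79 ± 0.17 and lower in the interior than in the margin (log2 change -2.92 ± 0.17). The list summed to 5673 and 5116 CPM in the TREAT margin and 6121 and 5658 CPM in the Vehicle margin, against 913.4 and 539.9 CPM in the TREAT interior and 783.6 and 859.8 CPM in the Vehicle interior. No gene of it was at 0. The part of these cells in the Pdpn and Chil1 levels was not tested.

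In the same comparison of interior with brain, where 34.8% of all genes were called higher and 37.0% lower, 16 of 21 other mesenchymal state genes were higher and 3 lower. Anxa1, an anti-inflammatory phospholipid-binding protein, was higher by 5.49 ± 0.24, S100a11 by 3.73 ± 0.17 and the matrix protein Tgfbi by 4.30 ± 0.20, while the repressor Zeb1 had a log2 change of -2.60 ± 0.13. Of 13 genes of OSM, IL-6 and STAT3 signalling 9 were higher and 2 lower, with the cytokine Osm at 3.77 ± 0.16 and the feedback inhibitor Socs3 at 3.58 ± 0.21. Of 14 AP-1 and C/EBP partners 9 were higher and 2 lower, and of 11 RUNX and TWIST partners 7 were higher and 2 lower. Of 11 proneural and progenitor glioma genes 1 was higher, the filament gene Nes at 2.25 ± 0.13, and 9 were lower. Macrophage markers were also higher in the interior, 9 of 11, with 1 lower, and summed to 516.0 and 314.6 CPM in TREAT and 518.5 and 570.0 CPM in Vehicle interior, against 180.2 to 301.2 CPM in brain. Their part in the levels of the 10 genes was not tested.

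The promoters of these genes were searched for the motifs of the factors among them, in 250 bases before to 50 bases after the start site (RefSeq, GRCm38.p6). The table held 11 promoters of 9 of the genes, and Fosl1 was not among them. Motifs were read on both strands: AP-1 as TGANTCA, C/EBP as TTGCNNAA, STAT as TTCNNNGAA, RUNX as TGTGGT and the E-box as CATNTG. Of 32851 promoters of this length, 7.81% held the AP-1 motif, 10.8% C/EBP, 8.30% STAT, 16.8% RUNX and 39.4% the E-box. Only the upstream Emp1 promoter held AP-1 (first bases at -145 and -25 from the start), STAT (-120 and -22) or E-box letters (-190 and -90). The AP-1 match at -25 and the STAT match at -22 overlap. That promoter also held RUNX letters at -160, and one Runx1 promoter held them at 28 and 36. No promoter of the 9 genes held TTGCNNAA. A match is a description and not a binding site, and its absence says only that these letters are not in this window. The Emp1 promoter is shown with AP-1 and STAT matches in capitals. Those of Cebpb and Twist1, which were lower in TREAT tumour interior under all 14 alternatives run, and of the edge gene Pdpn are shown beside it and hold no such match.
Emp1 chr6:135362681-135362980 (+): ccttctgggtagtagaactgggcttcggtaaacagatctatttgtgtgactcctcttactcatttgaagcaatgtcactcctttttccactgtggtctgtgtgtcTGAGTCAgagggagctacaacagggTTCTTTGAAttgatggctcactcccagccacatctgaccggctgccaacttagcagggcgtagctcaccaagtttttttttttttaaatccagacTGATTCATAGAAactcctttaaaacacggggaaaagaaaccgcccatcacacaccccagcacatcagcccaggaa
Cebpb chr2:167688665-167688964 (+): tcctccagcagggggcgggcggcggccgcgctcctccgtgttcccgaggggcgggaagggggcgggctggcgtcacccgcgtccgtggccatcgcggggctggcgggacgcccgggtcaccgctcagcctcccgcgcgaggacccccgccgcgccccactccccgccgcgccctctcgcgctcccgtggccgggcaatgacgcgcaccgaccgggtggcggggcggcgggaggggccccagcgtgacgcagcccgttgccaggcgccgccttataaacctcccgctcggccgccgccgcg
Twist1 chr12:33957421-33957720 (+): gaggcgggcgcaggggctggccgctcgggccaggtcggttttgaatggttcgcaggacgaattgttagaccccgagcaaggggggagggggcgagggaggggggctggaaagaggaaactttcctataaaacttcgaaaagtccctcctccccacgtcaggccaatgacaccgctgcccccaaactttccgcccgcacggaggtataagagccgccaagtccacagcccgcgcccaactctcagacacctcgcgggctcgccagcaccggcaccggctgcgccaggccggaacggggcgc
Pdpn chr4:143299515-143299814 (-): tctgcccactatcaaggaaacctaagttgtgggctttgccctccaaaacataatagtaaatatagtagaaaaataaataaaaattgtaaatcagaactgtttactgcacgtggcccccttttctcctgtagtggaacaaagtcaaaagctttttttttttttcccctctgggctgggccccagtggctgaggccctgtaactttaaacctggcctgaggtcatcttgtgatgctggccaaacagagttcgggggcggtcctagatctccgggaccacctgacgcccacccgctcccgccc
The windows differ in CG dinucleotides, with 50 in Cebpb, 27 in Twist1, 7 in Pdpn and 5 in Emp1, against a median of 7 over all promoters of this length.

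In TREAT tumour interior, 7 of the 10 genes were lower than in Vehicle tumour interior and none was higher (edgeR, adjusted p under 0.05), in a comparison where 19.2% of 19795 genes were called lower and 9.75% higher (29.0% in all). Cebpb, Fosl1 and Twist1 had the largest changes, and Stat3, Chil1 and Pdpn were not called. The median change of the 10 was -0.68, against 0.06 over all genes. Library totals in place of TMM raise the median of all genes by 0.46 and turn the share of calls that are higher to 84.7%, against 33.7% with TMM. Only Cebpb, Fosl1 and Twist1 were then still called lower, Stat3 and Pdpn were called higher, and the other 5 were not called.

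Cebpb, at 351.4 ± 115.0 CPM in TREAT and 946.4 ± 193.2 CPM in Vehicle interior (SD, n = 2 each), had a log2 change of -1.48 ± 0.21 (SE, edgeR adjusted p = 5.93e-05). With library totals it was -1.002. Cebpb peaked 6 and 11 steps inside the edge in TREAT and 11 and 12 steps inside in Vehicle. These peak steps held 27 and 39 spots in TREAT and 62 and 94 spots in Vehicle, and a peak can only lie within the steps an area reaches. Interior spots were not matched for steps between the groups, and the part of this in the change was not tested. Twist1, at 45.8 ± 9.63 CPM in TREAT and 123.1 ± 17.1 CPM in Vehicle, changed by -1.47 ± 0.18 (adjusted p = 1.73e-05). Fosl1, at 36.3 ± 6.97 CPM in TREAT and 82.6 ± 2.08 CPM in Vehicle, changed by -1.24 ± 0.19 (adjusted p = 8.30e-05). These 3 were lower and called under all 14 alternatives. Among the alternatives, a floor of 1000 UMIs per spot kept the same interior spots and so repeated the main fit. By tissue piece, Cebpb had 247.6 to 438.0 CPM in the 4 TREAT pieces and 629.5 to 1261 CPM in the 4 Vehicle pieces. Twist1 had 35.01 to 57.2 CPM in TREAT and 97.5 to 158.9 CPM in Vehicle. For Cebpb, Twist1, Fosl1, Emp1 and Runx1 no TREAT piece reached the lowest Vehicle piece. Without TMM scaling this held for Cebpb and Twist1 only. Pieces of an area share a library, and the share of all genes that separate by piece was not measured.

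Emp1, Timp1, Runx1 and Hmga2 were lower by smaller amounts, with log2 changes of -0.81 ± 0.19, -0.58 ± 0.19, -0.56 ± 0.19 and -0.77 ± 0.22 (edgeR adjusted p = 0.00459, 0.0273, 0.035 and 0.0131). Both TREAT areas lay below both Vehicle areas for all 7 genes called, as in 32.4% of all genes tested. Stat3 and Chil1 lay above in both TREAT areas, as did 39.7% of genes. Without TMM scaling 4 of the 10 lay below, and the share of all genes on that scale was not measured. The calls of Emp1, Timp1, Runx1 and Hmga2 were lost with library totals (-0.35, -0.12, -0.09 and -0.32). With TMM kept, they were lost when only genes of at least 10 CPM were tested (-0.45, -0.22, -0.19 and -0.42). They were also lost without TREAT 2+3 (-0.52, -0.33, -0.41 and -0.39), a fit in which the remaining TREAT area is assumed to vary as the Vehicle areas do. With tumour defined by clusters Runx1 was not called (-0.51). Without Vehicle 1+4, Emp1, Timp1 and Runx1 were not called (-0.72, -0.45 and -0.43), and without Vehicle 2+3 Hmga2 was not (-0.66). Stat3 averaged 187.7 ± 28.7 CPM in TREAT and 149.5 ± 11.6 CPM in Vehicle, a change of 0.28 ± 0.17 (adjusted p = 0.199). It became 0.75 with library totals and 0.65 among genes of at least 10 CPM, and was called higher in both.

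Pdpn in the interior had a log2 change of 0.64 ± 0.34 (edgeR adjusted p = 0.15) that rests on 1 small piece. The left piece of TREAT 1+4, with 47 interior spots, had 78.3 CPM, while the other 3 TREAT pieces lay between 7.90 and 9.89 CPM and the Vehicle pieces lay between 5.73 and 13.5 CPM. Without TREAT 1+4 the change was -0.08, and without TREAT 2+3 it was 1.203 and was called, as it was without Vehicle 2+3 (1.19). With library totals, 0.5 times the tumour threshold and a margin of 1 step it was called too, at 1.08, 0.99 and 0.92. Chil1 had a log2 change of 0.41 ± 0.36 (adjusted p = 0.374), from 33 and 67 UMIs in TREAT and 34 and 68 UMIs in Vehicle.

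**Figure D4:**
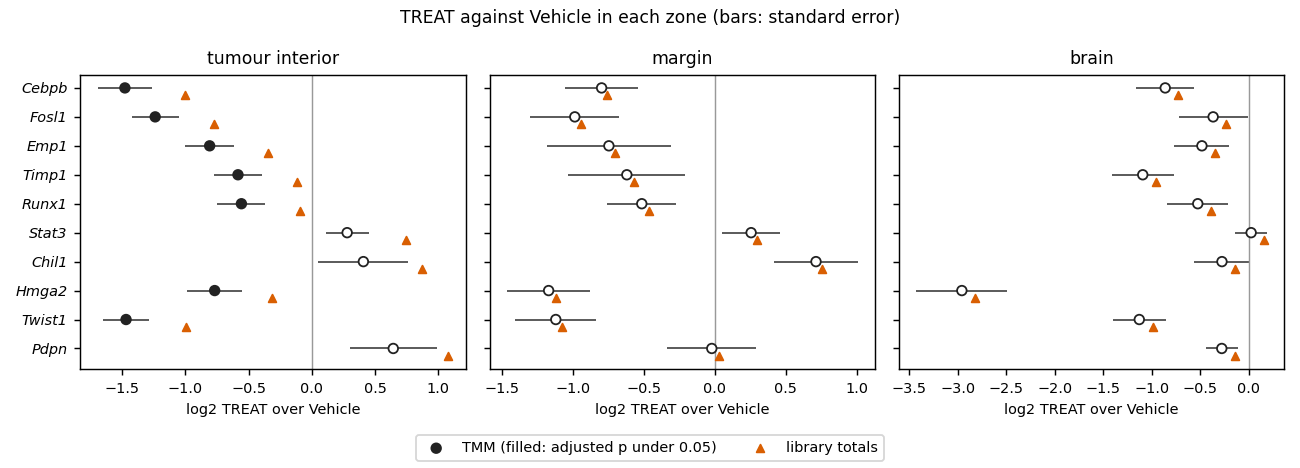
Circles give the log2 change of TREAT over Vehicle with its standard error in each zone, filled where the edgeR adjusted p was under 0.05, and triangles the same change with library totals. Only the interior panel has filled circles, 7 of 10, and the triangles there lie to the right of the circles.

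Over the whole tissue the same 7 genes were lower in TREAT (edgeR), where 5.67% of 20265 genes were called lower and 1.11% higher (6.78% in all). Their log2 changes ran from -2.27 ± 0.46 for Twist1 to -1.30 ± 0.30 for Runx1, with TREAT below in both areas for all 7 (34.8% of all genes, with 38.2% above) and Cebpb at 71.8 and 246.2 CPM in TREAT and 690.5 and 654.9 CPM in Vehicle. Interior spots were 14.2% of TREAT and 36.4% of Vehicle tissue, so these sums weigh the zones differently. Library totals raise the median of all genes by 0.34 here, and 81.0% of calls were then higher, against 16.3% with TMM. With the filter of 10 CPM no gene at all was called over the whole tissue. Without Vehicle 1+4 or without Vehicle 2+3 none of the 10 was called. Leaving out 1 area moved Cebpb between -1.45 (without TREAT 1+4) and -3.23 (without TREAT 2+3), and Twist1 between -1.67 and -3.32 for the same areas. Without TREAT 2+3, Stat3 was at -0.95 and Chil1 at 0.87.

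In the margin and in brain none of the 10 was called by edgeR, and neither was any other gene (0% of 14868 and 0% of 19281). At an unadjusted edgeR p under 0.05 there were 5 of the 10 in the margin, where 1580 of all 14868 genes were. In brain there were 4, where 3504 of all 19281 genes were. The 5 in the margin were Cebpb, Fosl1, Hmga2 and Twist1, which were lower, and Chil1, which was higher (0.71 ± 0.29). DESeq2 called none of the 10 in either zone. Both TREAT values lay below both Vehicle values for 5 of the 10 in the margin (33.0% of all genes tested, with 13.6% above) and for 7 in brain (23.9%, with 29.3% above). In the margin Twist1 had 12.7 and 13.01 CPM in TREAT and 37.9 and 24.3 CPM in Vehicle, while Cebpb had 137.7 and 204.1 CPM in TREAT and 376.5 and 274.9 CPM in Vehicle. Their log2 changes were -1.12 ± 0.29 and -0.80 ± 0.26 (edgeR adjusted p = 0.417 and 0.424). In brain the 4 with an unadjusted p under 0.05 were Hmga2 (-2.96 ± 0.47), Twist1 (-1.13 ± 0.27), Timp1 (-1.09 ± 0.32) and Cebpb (-0.86 ± 0.30), with edgeR adjusted p between 0.172 and 0.221. Cebpb there was -0.42 without TREAT 1+4 and -1.45 without TREAT 2+3. Leaving out an area leaves 1 area in its group, which is then assumed to vary as the other group does. In the margin without TREAT 1+4, Emp1 changed by -1.13, Timp1 by -1.25, Hmga2 by -1.61, Twist1 by -1.13 and Chil1 by 1.06. Without TREAT 2+3, Cebpb changed by -1.07 there, Fosl1 by -1.14 and Twist1 by -1.09. The difference of the TREAT effect between interior and brain, tested as an interaction, was called for none of the 10 by edgeR. Of 20086 genes 2.39% were called (0.433% higher and 1.96% lower). At an unadjusted edgeR p under 0.05 there were 3 of the 10 and 4363 of all 20086 genes. Hmga2 was the nearest to a call, at 2.19 ± 0.51 (edgeR adjusted p = 0.0582), and DESeq2 called it. A change limited to the interior is therefore not shown.

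Counts of the partners of these factors are read against the 19.2% of all genes called lower and the 9.75% called higher in the interior with TMM. Of 14 AP-1 and C/EBP genes 11 were lower in TREAT and none higher, among them Junb (-1.26 ± 0.19) and Batf3 (-0.99 ± 0.19) of the AP-1 family and Cebpd (-1.11 ± 0.18) and Cebpg (-0.74 ± 0.16) of the C/EBP family. Of 11 RUNX and TWIST partners 4 were lower, Runx2 (-1.13 ± 0.20), Cbfb (-0.94 ± 0.17), the E-protein Tcf3 (-0.82 ± 0.19) and Runx3 (-0.60 ± 0.20). Of 13 OSM, IL-6 and STAT3 signalling genes only 2 were called, Bcl3 lower (-0.96 ± 0.19) and Il6 higher (1.16 ± 0.37). Among 21 other mesenchymal genes 7 were lower, such as Wwtr1, the coactivator TAZ (-0.75 ± 0.19), and galectin-3, Lgals3 (-0.74 ± 0.19), and 1 was higher, Bhlhe40 (1.00 ± 0.18). Hypoxia genes were lower in 5 of 12, led by the glucose transporter Slc2a1 (-1.54 ± 0.19), and proliferation genes, the 20 that also defined the tumour spots, in 9 of 20. The medians of these lists were -0.74, -0.40, 0.05, -0.38, -0.53 and -0.39 in that order, against 0.06 over all genes. With library totals, where 37.9% of all genes were called higher and 6.86% lower, these counts were 3 lower and none higher for AP-1 and C/EBP partners, 2 lower and 3 higher for RUNX and TWIST partners, and 1 lower and 6 higher for OSM, IL-6 and STAT3 signalling. They were 0 lower and 2 higher for other mesenchymal genes, 2 lower and none higher for hypoxia genes, and 4 lower and 8 higher for proliferation genes. The summed proliferation level without TMM scaling was 2968 and 2618 CPM in TREAT and 2903 and 2733 CPM in Vehicle interior, where the areas overlap. All 7 oligodendrocyte markers were higher, with a summed level of 851.7 and 833.2 CPM in TREAT and 321.8 and 493.3 CPM in Vehicle interior, and they were called higher with library totals too. Of 11 macrophage markers 3 were lower, and 1 with library totals. Their part in the changes of the 10 genes was not tested.

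In spots thinned to 5000 UMIs each, which removes the difference in depth, a spot of the tumour interior held a UMI of 3.48 and 3.20 of the 10 genes on average in TREAT and of 3.77 and 3.68 in Vehicle. In the margin it held 2.19 and 2.06 in TREAT and 2.58 and 2.11 in Vehicle, and in brain 0.656 and 0.766 in TREAT and 0.730 and 0.848 in Vehicle. Thinning left out 0 of the TREAT interior spots and 0 and 70 of the Vehicle interior spots. In the margin it left out 3 and 6 in TREAT against 98 and 160 in Vehicle, and in brain 24 and 170 in TREAT against 822 and 806 in Vehicle. The thinned margin and brain spots are therefore unlike parts of their zones in the 2 groups. Without thinning the interior means were 7.40 and 7.01 in TREAT and 6.79 and 6.62 in Vehicle, so the order of the groups turned with depth. Twist1 was seen in 21.0% and 26.9% of thinned interior spots in TREAT and 43.2% and 40.8% in Vehicle, against 1.15% to 2.46% in brain. The 95% Wilson intervals of the interior shares were 16.5% to 26.5% and 23.6% to 30.5% in TREAT and 40.1% to 46.4% and 38.2% to 43.3% in Vehicle, and cover counting error only. Fosl1 was seen in 17.9% and 15.1% in TREAT and 31.2% and 29.9% in Vehicle, against 0.879% to 1.59% in brain.

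Within the tumour interior the genes occurred together about as often as their single shares give, but a common gene leaves little room to exceed that. Cebpb was in 79.8% and 91.3% of thinned interior spots in TREAT and in 98.1% and 95.1% in Vehicle. Its pairs therefore could not show much more sharing than expected, least of all in Vehicle. Of the 45 pairs, 35 had at least 5 spots expected with both genes in every area, and over these the number observed was a median of 1.01 times that expected, with a range of 0.743 to 1.17. Pairs above 1 in all 4 areas numbered 5 and pairs below 1 in all 4 numbered 6. Fosl1 with Pdpn was the lowest, at 0.669 to 0.884 by area, and all 7 Pdpn pairs measured were below 1 on average, between 0.743 and 0.964. Spearman's rho over spots lay between -0.057 and 0.057 on average, and at these counts such values are no finding. At 2500 UMIs 3 of 25 pairs were above 1 in all areas and 0 below. Without thinning 14 of 44 were above and 4 below, with rho from -0.074 to 0.20 on average, in spots that differ in depth.

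In the margin, where tumour and brain meet, 23 pairs could be measured, with a median of 1.09 and a range of 0.654 to 1.37. Cebpb and Emp1 shared spots at 1.37 times the expected number, 1.25 to 1.47 by area, and Cebpb with Runx1 at 1.24 times, 1.22 to 1.27 by area. Chil1 with Pdpn was above 1 in every area, at 1.04 to 1.26. Timp1 with Chil1 was below 1 in every area, at 0.335 to 0.933, and so was Timp1 with Pdpn, at 0.700 to 0.900. In brain 8 pairs could be measured, with a median of 1.23, 3 pairs above 1 in all areas and none below. The counts moved with depth: at 2500 UMIs 0 of 7 margin pairs were above 1 in all areas and 0 below, and without thinning 34 of 42 were above and 2 below. The spots of an area share a library and, in the margin, a gradient across the edge, so these are descriptions.

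**Figure D5:**
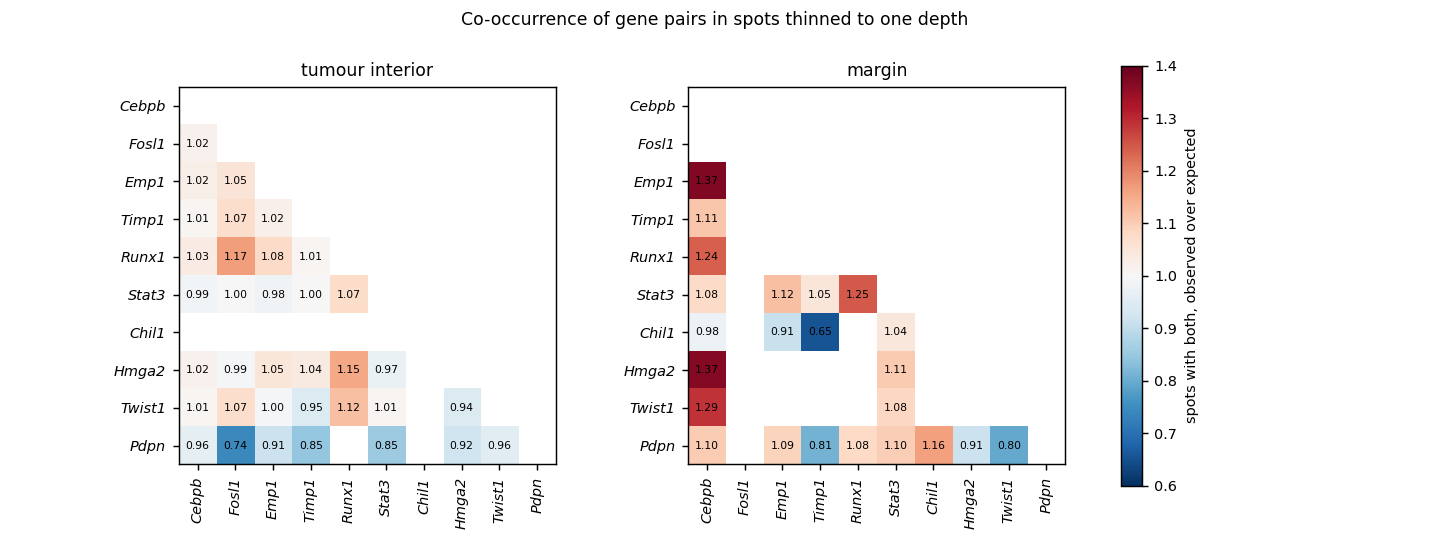
Cells give the number of spots with a UMI of both genes over the number expected from their single shares, averaged over the 4 areas, in spots thinned to 5000 UMIs. Blank cells had fewer than 5 expected spots in some area. In the interior most cells are near 1 and the Pdpn row lies below it, and in the margin the Cebpb column is mostly above 1.

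Across interior spots, the genes most like each member among 9282 detected in at least 20% of spots differed between the groups of members, with Pearson's r of log counts averaged over the 4 areas. For Cebpb these were Ctsl (0.37), the stress factor Atf4 (0.33) and Tinagl1 (0.33), and for Hmga2 Ctsl (0.35), the cyclin Ccnd1 (0.35) and galectin-1, Lgals1 (0.33). Tinagl1, a matrix glycoprotein, came first for Emp1 (0.36), Timp1 (0.32) and Fosl1 (0.26). For Stat3 they were the interferon-induced GTPases Igtp (0.22) and Gbp3 (0.19) and the interferon factor Irf1 (0.18). Pdpn was most like Gfap (0.52), the astrocyte filament gene, Ptn (0.51) and Igfbp5 (0.50), with r from 0.17 to 0.72 by area for Gfap. Those for Twist1 were at most 0.20 and for Runx1 at most 0.11, and Chil1 was in too few spots. The spots share libraries and differ in depth, so r is a description.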

How the data were processed

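Spatial libraries of 4 capture areas (Visium for formalin-fixed tissue, gene-specific probe pairs) were deposited by the authors as raw UMI counts per spot and gene. Space Ranger 2.1.1, Seurat, R 4.4.1 and the build mm10 are named, per the submitters' processing notes. For this report, 304 features marked as deprecated and 43 spots under 500 UMIs were left out. Spots over tissue were assigned to zones, and counts were summed per area and zone. The 2 areas of each group were compared with edgeR 4.0.16 in R 4.3.3 (quasi-likelihood test, TMM, filterByExpr, Benjamini-Hochberg over all genes, threshold 0.05). Zones were compared in a fit of all 12 sums with area as a block, from which printed scaled levels also come, and whole-tissue levels come from their own fit. DESeq2 1.42.0, library totals, gene filters, other zone rules, clusters (scanpy 1.11.5, leidenalg 0.10.2) and leaving out each area were alternatives. The fit was tested on simulated data.

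All 10 genes are described. Of each list, up to 4 genes with the smallest p are named, and the 3 genes most like each member. The members and lists were chosen with earlier results of these data known.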

Additional observations from a re-analysis of the deposited data

Results flagged for a closer look

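Outside the tissue outline, all 10 genes had counts above the 3 UMIs that a count of 0 allows. Summed over the 4 areas these were 2620 UMIs of Cebpb, 1010 of Stat3, 680 of Pdpn, 597 of Emp1, 350 of Timp1, 320 of Twist1, 267 of Hmga2, 244 of Chil1, 210 of Fosl1 and 177 of Runx1. The spots outside the outline numbered 1640 and 1979 in TREAT and 1787 and 1504 in Vehicle, and held 3.83% and 5.38% of all UMIs in TREAT and 5.41% and 4.65% in Vehicle. Their median was 159 and 588 UMIs per spot in TREAT and 348 and 675.5 in Vehicle. Cebpb there was at 111.7 and 225.4 CPM in TREAT and 426.1 and 405.1 CPM in Vehicle, and Pdpn at 95.002 and 64.2 CPM in TREAT and 71.8 and 65.4 CPM in Vehicle (CPM without TMM scaling). The source of these counts, and its part in the levels over tissue, were not tested.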

How the results depend on the processing

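With 2 areas in each group, 1 library decides many counts. Few counts limit Hmga2 in brain, with 12 and 12 UMIs in TREAT and 20 and 31 in Vehicle. Among the values of single genes under alternatives, 940 kept direction and side of the threshold, 24 gained a call, 47 lost it and 28 changed sign, and the cause was not tested.

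Over whole tissue, 1373 genes were called, 3665 by DESeq2, 3605 with library totals, 0 among genes of at least 10 CPM (with 0 of the 10 genes), and 7 without Vehicle 1+4, 14 without Vehicle 2+3, 310 without TREAT 1+4 and 4770 without TREAT 2+3 (0 to 9 of the 10). In the interior 5731 were called, 8860 with library totals, 2511 at 10 CPM (4 of the 10), 3055 with clusters and 1873 to 6442 leaving out each area, with 3745 without TREAT 2+3 (4 to 7 of the 10). In the margin 0 were called, 26 by DESeq2, 1 without the gene filter, 1 with clusters and 0 to 973 leaving out each area, with 646 without TREAT 1+4 (0 to 5 of the 10). In brain 0 were called, 428 by DESeq2 and 0 to 13 leaving out each area (0 to 1 of the 10). The 4 of the 10 called in the interior at 10 CPM were Cebpb, Fosl1 and Twist1, lower in TREAT, and Stat3, higher (0.65). Margin over brain gave 7692 genes, 2966 at 0.5 times the threshold and 3910 with a margin of 1 step. The interaction gave 481 genes, 0 with library totals, at 10 CPM, at 0.5 times the threshold, with a margin of 1 step or with clusters, 2 at 1.5 times the threshold, and 0 to 2 leaving out each area. DESeq2 called 1 of the 10 there. The area medians of observed over expected shared spots averaged 0.999 in the interior and 1.07 in the margin, and 1.01 and 1.16 without thinning.

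Areas carry the numbers 1+4 and 2+3 in both groups. With these numbers as a replicate block, 9100 genes were called over whole tissue, 5502 in the interior, 1 in the margin and 0 in brain. The numbers do not pair samples by any label, and deviations of same-numbered areas correlated at 0.349 over whole tissue, 0.040 in the interior, 0.186 in the margin and -0.226 in brain. A crossed block in brain, chosen after seeing the data, called 609 genes and 2 of the 10.

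Leaving out each area, Pdpn ranged from -0.16 to 0.25 over whole tissue (-0.10 without Vehicle 1+4), -0.083 to 1.203 in the interior and -0.58 to 0.38 in the margin (0.060 without Vehicle 2+3), and Stat3 from -0.95 to 0.10 over whole tissue and -0.14 to 0.20 in brain (-0.082 without Vehicle 1+4). Emp1 ranged from -1.31 to 0.017 in the margin, and in brain Fosl1 from -0.78 to 0.069 and Chil1 from -0.72 to 0.28. In the interaction Emp1 ranged from -0.84 to 0.41 and Runx1 from -0.43 to 0.46 (0.24 without TREAT 2+3). Pdpn in the margin was 0.033 with library totals, 0.034 at 10 CPM, 0.076 at 1.5 times the threshold and 0.025 with clusters. With a margin of 1 step Fosl1 was 0.28 and Timp1 0.25 there. Stat3 in brain was -0.023 at 0.5 times the threshold, -0.013 with a margin of 1 step and -0.030 with clusters. With library totals the interaction was 0.0083 for Emp1 and 0.28 for Runx1, and Runx1 was 0.10 at 10 CPM, 0.085 at 1.5 times the threshold and 0.14 with a margin of 1 step.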
